A study of Homo sapiens with 9 samples.

Results

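YAP and TAZ are transcriptional coactivators that bind DNA through the TEAD family of transcription factors, and 10 genes around them are described here. They comprise 4 target genes with other roles (ANKRD1, CCN1, CCN2 and AXL), 3 regulators of the pathway that are themselves regarded as targets (AMOTL2, LATS2 and AJUBA), and 3 effectors (YAP1, WWTR1, which encodes TAZ, and TEAD1). The genes were taken by symbol from a table of 62703 genes, in which each of the 10 symbols stood on 1 row, so no measured value decided which row was used. The list was selected on knowledge of the pathway and on what was already known of these data: it was chosen by symbol with earlier results known, among them the fall of ANKRD1, so the test of ANKRD1 is not independent evidence of its fall, and counts over the list support nothing about the pathway by themselves. All 10 averaged 1 TPM or more over the 9 libraries, the filter that 13443 genes in all passed. TPM, a transcript abundance, is scaled for gene length, and every library has the same total, so levels of different genes can be set side by side.

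The Hippo pathway is a kinase cascade in which MST kinases activate LATS kinases, and LATS kinases phosphorylate YAP and TAZ, which keeps them in the cytoplasm or sends them to degradation. When the cascade is quiet, as in cells that are spread, stretched or sparse, YAP and TAZ enter the nucleus, join TEAD proteins on DNA and activate genes such as ANKRD1, CCN1 and CCN2. In liver the pathway is known for its control of organ size and for its activity in hepatocellular carcinoma. Since YAP and TAZ are controlled largely by phosphorylation and location, their own transcript levels do not measure their activity.

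The 9 RNA sequencing libraries came from cells labelled HepG2, a line derived from a human hepatocellular carcinoma, and every culture had received palmitic acid, a saturated fatty acid, at 750 µM for 24 h. In the first group of 3 libraries palmitic acid was the sole treatment. The second group of 3 had curcumin, the main polyphenol of turmeric, at 20 µM for 12 h after the palmitic acid, and the third group of 3 had curcumin at 20 µM and CuCl2 at 5 µM together for 12 h. The labels name no vehicle control, no cells free of palmitic acid and no palmitic acid group kept for the same extra 12 h, so the effect of the agents and that of the vehicle or the later time cannot be told apart. They also do not say that replicates were separate cultures, and the p-values take in the spread among these libraries and no more, a spread that may be technical.

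Depth is unknown, since TPM does not keep it, and between 13208 and 13737 genes reached 1 TPM per library. The labelled cell type did not show in its markers: 10 of 10 hepatocyte markers had a mean under 1 TPM, ALB, TTR, APOB, APOA2 and FGB were at 0 in every library, and the summed level of the list lay between 0.74 and 2.20 TPM. Of 6 epithelial markers, 3 had a mean under 1 TPM, namely KRT19, EPCAM and CDH1. The other 3, KRT8, KRT18 and KRT7, averaged 892, 862 and 1216 TPM over the 9 libraries. The sum of the 6 was 3314 to 3812 TPM under palmitic acid alone, 2505 to 2865 TPM with curcumin and 2637 to 2715 TPM with both agents. Of 8 fibroblast markers COL1A1 averaged 11.1 TPM and the other 7 did not reach a mean of 1 TPM, PDGFRA being at 0. The list summed to 9.32 to 14.7, 12.7 to 16.7 and 10.6 to 14.2 TPM in the 3 groups. Of 6 endothelial markers 6 did not reach it, KDR being at 0, and the list summed to 0.50 to 1.3, 0.38 to 0.64 and 0.38 to 0.77 TPM. Of 6 leukocyte markers CD68 averaged 7.58 TPM and CD14 1.51 TPM, and the other 4 did not reach a mean of 1 TPM, CD3E being at 0. The list summed to 8.40 to 10.4, 8.72 to 11.0 and 8.08 to 9.32 TPM. The part of the epithelial list's lower sum in the results on the 10 genes was not tested.

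TEAD proteins bind the core letters GGAATG, read as CATTCC on the other strand, and both strands were searched in the 250 bases before the annotated starts of the genes. RefSeq sequences (GRCh38.p14) were matched for 8 of the 10 genes, in 12 windows. CCN1 and TEAD1 had no entry. The core was present for 6 of the 8, namely ANKRD1, CCN2, AMOTL2, AJUBA, AXL and YAP1, in 6 of the 12 windows. Of all 27305 genes with a window, 14.3% had the core, and 11.9% of all 35116 windows of that length held it. The stretches of ANKRD1 and CCN2 are shown because these genes carried more than 1 copy of the core and differed in their response. Each runs 5′ to 3′ along the gene, with the core in capitals, and is named by the distance of its first core base from the start.
ANKRD1, 220 bases upstream: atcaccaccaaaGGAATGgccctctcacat
ANKRD1, 128 bases upstream: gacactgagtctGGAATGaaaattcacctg
CCN2, 169 bases upstream: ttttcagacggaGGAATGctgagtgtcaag
CCN2, 104 bases upstream: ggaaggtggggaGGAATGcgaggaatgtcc
CCN2, 95 bases upstream: ggaggaatgcgaGGAATGtccctgtttgtg
The ANKRD1 stretches lie on the minus strand at chr10:90921290-90921319, upstream of the gene, and at chr10:90921198-90921227, in the 5′ untranslated region of a GENCODE 29 transcript. The CCN2 stretches lie on the minus strand at chr6:131951524-131951553, chr6:131951459-131951488 and chr6:131951450-131951479, all upstream of the gene, and the last pair overlap, so that each shows the other's core in lower case. The window of AXL with the core and those of AMOTL2 and AJUBA belonged to a second annotated start, that of YAP1 to its first. By GENCODE 29, the cores of AMOTL2 and AJUBA with their flanks met an untranslated region, and that of AXL lay in an intron. The core of YAP1 lay upstream of the gene. The AP-1 letters TGANTCA, held by 6.57% of all windows, were found for ANKRD1 alone among the 8 genes, as TGATTCA at 195 bases upstream. The CArG box, the DNA element of serum response factor, was held by 1.16% of all windows and by none of the 12. A match describes the letters of the window and does not show binding.

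With curcumin, the transcripts of ANKRD1 and CCN1 fell, and those of the other 8 genes did not pass the test. ANKRD1 encodes an ankyrin repeat protein of the nucleus and sarcomere and lies at chr10:90912096-90921276 (GRCh38, ENSG00000148677). It stood at 67.2, 57.8 and 43.4 TPM under palmitic acid alone, at 21.8, 25.6 and 22.2 TPM with curcumin and at 25.6, 25.0 and 26.1 TPM with both agents. Every library under palmitic acid alone lay above all 6 others. The means were 56.1 ± 12.0, 23.2 ± 2.09 and 25.6 ± 0.545 TPM (SD, n = 3). In limma with Benjamini-Hochberg adjustment over all 13443 genes, ANKRD1 fell by 1.22 on the log2(TPM + 1) scale with curcumin (SE 0.14, adjusted p = 0.00416). That is a factor of 0.429 on TPM + 1.

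CCN1 encodes a secreted matricellular protein, also known as CYR61, that binds integrins. The gene lies at chr1:85580761-85583962 (ENSG00000142871). Its libraries held 262, 225 and 206 TPM under palmitic acid alone, 147, 137 and 128 TPM with curcumin and 151, 154 and 156 TPM with both agents, with no overlap between the first group and the others. The group means were 231 ± 28.4, 137 ± 9.35 and 154 ± 2.12 TPM (SD, n = 3). With curcumin CCN1 fell by 0.74 in log2 (SE 0.09, limma adjusted p = 0.00485), a factor of 0.599 on TPM + 1.

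CCN2, the close relative of CCN1 also known as CTGF, encodes a secreted matrix protein linked with fibrosis and lies at chr6:131948176-131951373 (ENSG00000118523). Its values were 19.2, 20.0 and 14.1 TPM under palmitic acid alone, 16.8, 18.3 and 16.0 TPM with curcumin and 17.7, 21.3 and 20.2 TPM with both agents. The 3 groups overlapped, with means of 17.8 ± 3.20, 17.0 ± 1.16 and 19.7 ± 1.82 TPM (SD, n = 3). The difference with curcumin was -0.04 in log2 with a 95% interval from -0.35 to 0.26 (limma adjusted p = 0.951), so a fall as large as that of CCN1 or ANKRD1 lay outside the interval.

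The ratio of ANKRD1 to CCN2 within each library, chosen after these values had been seen, leaves out any scaling shared by both genes. It was 3.50, 2.90 and 3.08 in the palmitic acid libraries, 1.3, 1.40 and 1.38 with curcumin and 1.44, 1.18 and 1.29 with both agents. The palmitic acid libraries again stood apart from the rest. The ratio of CCN1 to CCN2 was 13.6, 11.2 and 14.6 in the palmitic acid libraries, 8.78, 7.46 and 8.01 with curcumin and 8.54, 7.25 and 7.69 with both agents. For each ratio, an exact two-sided permutation test of curcumin against palmitic acid alone gave p = 0.1, which is the smallest value that 3 against 3 libraries allow. Groups that do not overlap must give that value, and the ratios were chosen with the values seen, so the test decides nothing here.

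AXL encodes a receptor tyrosine kinase of the TAM family, for which GAS6 is a ligand, and lies at chr19:41219203-41261766. It stood at 33.1, 28.5 and 21.9 TPM under palmitic acid alone, at 19.6, 22.2 and 18.4 TPM with curcumin and at 19.1, 21.0 and 20.6 TPM with both agents. The curcumin libraries reached just into the range of palmitic acid alone, through curcumin replicate 2 and palmitic acid replicate 3, while the libraries with both agents lay wholly below it. The difference with curcumin was -0.44 in log2 (SE 0.14, limma adjusted p = 0.182). GAS6 had group means of 0.133 to 0.177 TPM, near the lower end of what the table resolves with 2 decimals.

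**Figure D1:**
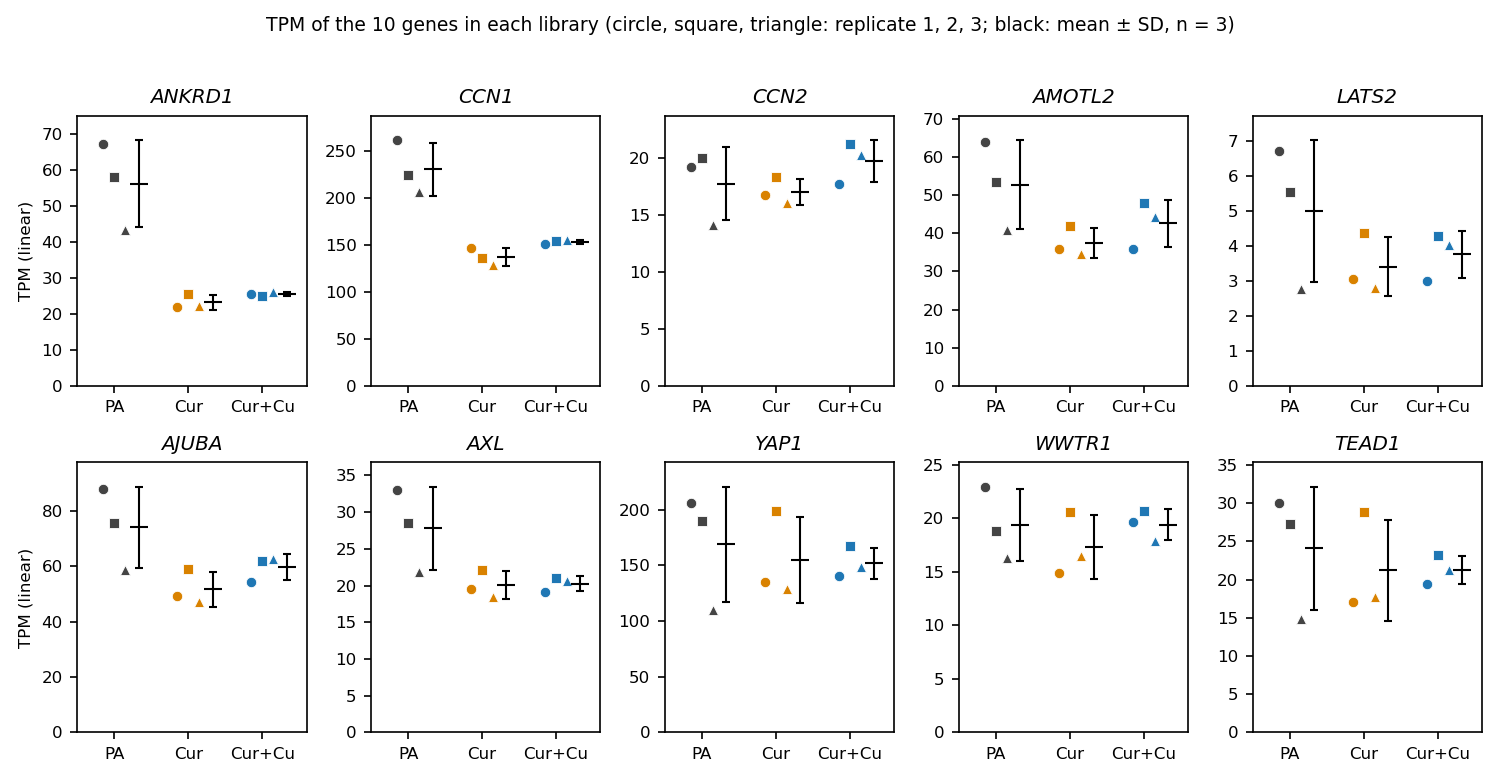
TPM on linear axes starting at 0 for each of the 10 genes, by treatment (PA, palmitic acid alone, Cur, curcumin after palmitic acid, Cur+Cu, curcumin and CuCl2 after palmitic acid), with circles, squares and triangles for replicates 1, 2 and 3 and black bars for the mean ± SD of 3 libraries. ANKRD1 at 43.4 to 67.2 TPM and CCN1 at 206 to 262 TPM under palmitic acid alone lie above all libraries with curcumin, whereas the CCN2 groups overlap.

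The 3 feedback regulators had lower means with curcumin, but none passed the test. AMOTL2, an angiomotin family scaffold of cell junctions that binds YAP, lies at chr3:134355874-134375479 and held 64.1, 53.4 and 40.8 TPM under palmitic acid alone, 36.0, 42.0 and 34.6 TPM with curcumin and 35.8, 47.9 and 44.2 TPM with both agents. AJUBA, a LIM domain protein that binds and restrains LATS kinases, lies at chr14:22971174-22982642 and held 87.9, 75.6 and 58.8 TPM, then 49.2, 59.0 and 47.1 TPM, then 54.3, 61.9 and 62.7 TPM in the same order of groups. In both genes the overlap with curcumin was between palmitic acid replicate 3 and curcumin replicate 2. The differences with curcumin were -0.46 in log2 for AMOTL2 (SE 0.17, limma adjusted p = 0.232) and -0.50 for AJUBA (SE 0.14, limma adjusted p = 0.134). LATS2, the kinase that phosphorylates YAP and TAZ, lies at chr13:20973032-21061547 and was the least abundant of the 10 in every group. Its values were 6.69, 5.52 and 2.75 TPM under palmitic acid alone, 3.06, 4.36 and 2.79 TPM with curcumin and 3.0, 4.27 and 4.01 TPM with both agents. Palmitic acid replicate 3 was the lowest of all 9 libraries for LATS2, and the difference with curcumin was -0.40 with an interval from -0.99 to 0.20 (limma adjusted p = 0.577).

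The 3 effector transcripts overlapped between all groups. YAP1, at chr11:102110461-102233423, held 206, 190 and 110 TPM under palmitic acid alone (110 is replicate 3), 135, 199 and 129 TPM with curcumin and 140, 167 and 149 TPM with both agents. Its difference with curcumin was -0.10 in log2 with an interval from -0.63 to 0.42 (limma adjusted p = 0.922), a width that leaves falls or rises of moderate size within it. WWTR1, at chr3:149517235-149736714, held 22.9, 18.8 and 16.2 TPM, then 14.9, 20.6 and 16.5 TPM, then 19.6, 20.7 and 17.8 TPM. TEAD1, the DNA-binding partner, at chr11:12674591-12944483, held 30.0, 27.3 and 14.9 TPM, then 17.1, 28.8 and 17.7 TPM, then 19.4, 23.2 and 21.2 TPM. The differences with curcumin were -0.15 for WWTR1 (limma adjusted p = 0.755) and -0.16 for TEAD1 (limma adjusted p = 0.883).

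Of the 10 genes, 2 were called with curcumin, both lower, where 1.96% of all genes tested were called, 1.21% lower and 0.759% higher. All 10 estimates were below 0, as were 53.5% of all genes. The groups did not overlap for 2 of the 10, ANKRD1 and CCN1, both lower, and for 16.8% of all genes (8.61% lower). The median difference was -0.42 in log2 against -0.02 for all genes. The fit of only the 2 groups compared called 0 of the 10 (limma adjusted p = 0.0635 for ANKRD1 and 0.069 for CCN1, within ranges over 19 alternatives of 0.000203 to 0.0635 and 0.0017 to 0.069). That fit called 0.260% of all genes. Without palmitic acid replicate 3, 5 were called, with AMOTL2, AJUBA and AXL as the additions, and 4.60% of all genes. Median-of-ratios scaling called 4 and 2.32% of all genes, and the mitochondrial covariate 5 and 11.2%.

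With curcumin and CuCl2, ANKRD1 and CCN1 also stood below palmitic acid alone. This comparison uses the same 3 palmitic acid libraries as that of curcumin, so the estimates share their error. ANKRD1 fell by 1.08 in log2 (SE 0.14, limma adjusted p = 0.00796), a factor of 0.472 on TPM + 1. CCN1 fell by 0.58 (SE 0.09, limma adjusted p = 0.0165), a factor of 0.671. AXL had a difference of -0.42 (limma adjusted p = 0.208), AMOTL2 -0.29 (0.505 on the same scale of adjusted p) and AJUBA -0.29 (0.42). LATS2, YAP1 and TEAD1 had differences of -0.28, -0.10 and -0.12, and CCN2 and WWTR1 of 0.16 and 0.02, with limma adjusted p-values of 0.703 to 0.987.

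Of the 10 genes, 2 were thus called with both agents, both lower, against 1.44% of all genes, 0.900% lower and 0.543% higher. Estimates were below 0 for 8 of 10, against 56.1% of all genes, and the groups did not overlap for 3, ANKRD1, CCN1 and AXL, all lower, against 19.0% of all genes (10.3% lower). The median was -0.28 in log2, with -0.03 for all genes. The count of calls was 0 without any 1 of the 3 libraries with both agents, where 0.342% to 0.424% of all genes were called. It was 1, ANKRD1, without palmitic acid replicate 2, in the fit of only the 2 groups and with no filter. The shares of all genes there were 0.543%, 0.484% and 0.357%. It was 3, with AXL added, without palmitic acid replicate 3 (3.92% of all genes) and with the mitochondrial covariate (10.7%).

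Curcumin with CuCl2 did not differ from curcumin by the test for any of the 10 genes, each with a limma adjusted p of 1. Limma called 0% of all genes. An unadjusted p under 0.05 was found for 215 of all genes (1.60%) and for 0 of the 10. The estimates were 0.14 in log2 for ANKRD1 (interval -0.18 to 0.46), 0.16 for CCN1 (-0.04 to 0.37) and 0.20 for CCN2 (-0.11 to 0.51). The CCN1 libraries with both agents, at 151 to 156 TPM, nonetheless lay above those with curcumin, at 128 to 147 TPM, and such a lack of overlap was seen for 1 of the 10 and for 6.24% of all genes. Estimates were above 0 for 9 of the 10, with a median of 0.15, and for 45.6% of all genes, with a median of -0.01.

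**Figure D2:**
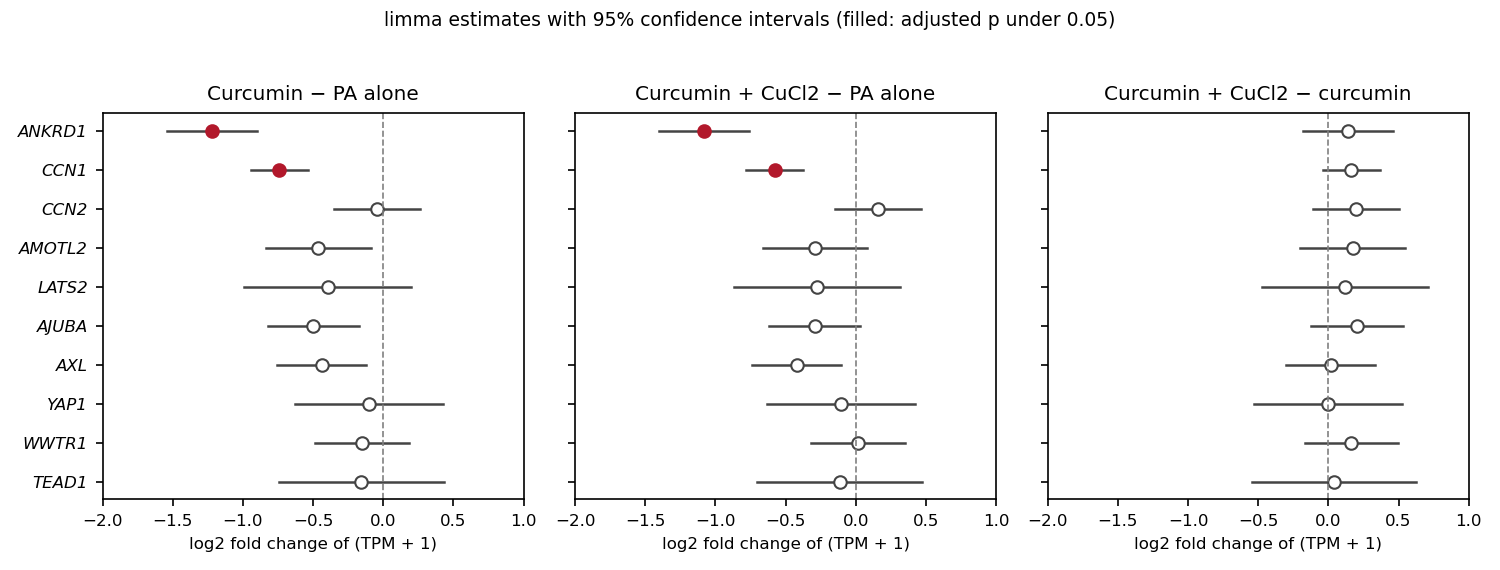
Limma estimates of the log2 fold change of (TPM + 1) with 95% confidence intervals for the 10 genes in the 3 comparisons, with filled points for adjusted p under 0.05. ANKRD1 at -1.22 and CCN1 at -0.74 with curcumin, and at -1.08 and -0.58 with both agents, are the filled points, and the panel of both agents against curcumin has none.

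The order of levels was led by CCN1 and YAP1 in all groups and closed by LATS2. With palmitic acid alone, CCN1 stood above YAP1 with no overlap of their libraries, followed by AJUBA, ANKRD1 and AMOTL2, whose neighbours overlapped, then AXL, TEAD1, WWTR1 and CCN2, whose neighbours overlapped as well, and last LATS2. ANKRD1 was thus among the middle genes in that group. With curcumin YAP1 and CCN1 overlapped at the head, AJUBA and AMOTL2 each stood apart from the next gene, and ANKRD1 overlapped with TEAD1, its neighbour below. With both agents CCN1 and YAP1 overlapped, AJUBA, AMOTL2 and ANKRD1 followed without overlaps, and TEAD1, AXL, CCN2 and WWTR1 overlapped from neighbour to neighbour.

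Part of the variation among the 10 genes ran by library and not by treatment. Palmitic acid replicate 3 was the lowest of its group for 10 of 10 genes, as it was for 61.4% of all genes, and palmitic acid replicate 1 the highest for 9 (52.5% of all genes). Curcumin replicate 2 was the highest of its group for 9 of 10 (54.4% of all genes). The mitochondrial share of the TPM was 12.99%, 12.5% and 10.1% in palmitic acid replicates 1, 2 and 3, 10.4%, 12.4% and 10.9% in the curcumin libraries and 10.7%, 11.8% and 11.4% with both agents. Palmitic acid replicate 3 was thus lowest of its group in both respects, and curcumin replicate 2 highest. With that share as a covariate, ANKRD1 and CCN1 passed in both comparisons with palmitic acid alone. In that setting 11.2% and 10.7% of all genes passed, against 1.96% and 1.44% without it. The part of the variation among libraries in these falls was not tested.

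The genes differed in how far they followed this pattern. Palmitic acid replicate 3 lay below the mean of replicates 1 and 2 by the most for LATS2 (-0.92 in log2), TEAD1 (-0.90) and YAP1 (-0.84), and by the least for CCN1 (-0.23), where the median over all genes was -0.20. YAP1 and TEAD1 were the closest pair of the 10 across libraries, with a root mean square difference of 0.05 between their centred log2 values, followed by AMOTL2 and AJUBA at 0.06 and AJUBA and AXL at 0.08. The farthest pair was ANKRD1 and CCN2, at 0.58. These are descriptions over 9 libraries that share the same depth and scaling within a library.

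**Figure D3:**
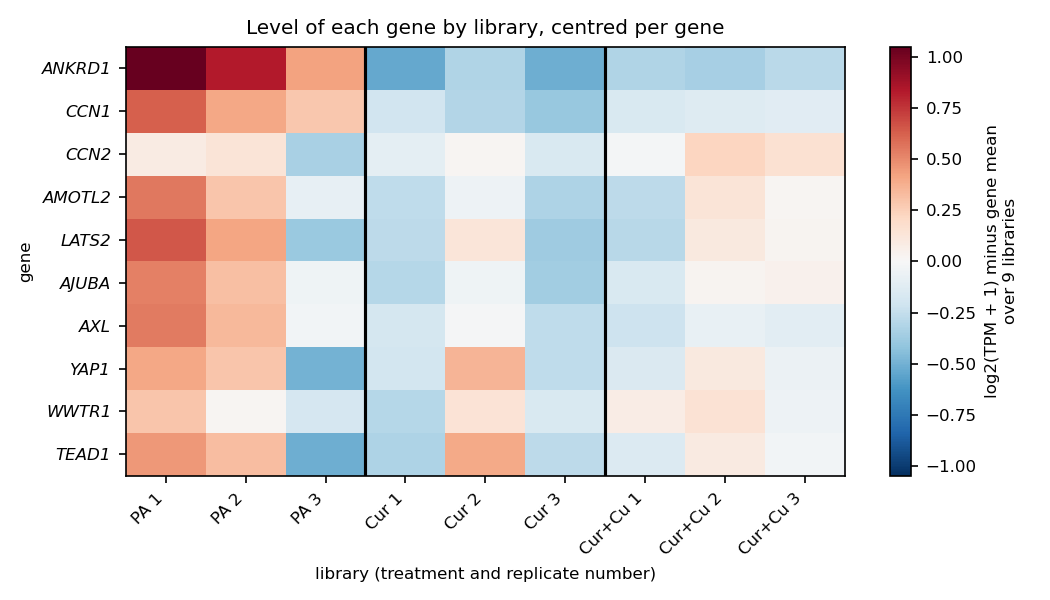
Log2(TPM + 1) of each gene (rows) in each of the 9 libraries (columns, by treatment and replicate number), minus the gene's mean over the 9, in red where higher and blue where lower. The upper rows, ANKRD1 and CCN1, change colour between palmitic acid alone and the other groups, while YAP1 and TEAD1 are blue in palmitic acid replicate 3 and red in curcumin replicate 2.

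Genes whose centred values lay nearest to 3 of the targets were sought among 9197 other genes, those that averaged 5 TPM or more and had a plain gene symbol and not a clone, antisense or identifier name, across all 9 libraries. Nearest to ANKRD1 were SAMD4A (root mean square difference 0.11), the interferon-stimulated gene IFIT3 (0.12) and TXNIP, which encodes an inhibitor of thioredoxin (0.12). IFIT3 had group means of 70.6, 32.8 and 32.02 TPM. Nearest to CCN1 were the phosphatase gene DUSP8, TINAGL1 and EXT1, a heparan sulfate polymerase gene, each at 0.08. Nearest to CCN2 were VPS37A and VLDLR at 0.05 and BAHD1 at 0.06, of which VPS37A stood at 24.7, 24.3 and 26.8 TPM.

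Other genes that published signatures assign to YAP and TEAD were counted from lists also drawn up with earlier results known. Of 16 further signature genes, 15 passed the filter (RBMS3 did not). With curcumin 3 of them fell and 0 rose, where 1.21% of all genes were called lower and 0.759% higher. Their estimates were below 0 for 14, as were 53.5% of all genes, and the median was -0.33 against -0.02 for all genes. IGFBP3, an insulin-like growth factor binding protein, went from 113, 95.3 and 84.5 TPM under palmitic acid alone to 47.6, 48.6 and 45.5 TPM with curcumin and 56.3, 64.0 and 58.6 TPM with both agents. Its groups did not overlap, as was seen against palmitic acid alone for 16.8% of all genes with curcumin and 19.0% with both agents. Between both agents and curcumin that share was 6.24%. IGFBP3 fell by 1.02 with curcumin (limma adjusted p = 0.00227) and by 0.69 with both agents (limma adjusted p = 0.0142). With both agents it stood 0.33 above curcumin (limma unadjusted p = 0.0109), where limma called 0% of all genes after adjustment. Of the 15, 1 had an unadjusted p under 0.05 there, against 1.60% of all genes. NUAK2, an AMPK-related kinase gene, had means of 10.8 ± 1.47, 6.49 ± 0.416 and 6.44 ± 0.253 TPM (SD, n = 3) and fell by 0.65 and by 0.66 (limma adjusted p = 0.0295 and 0.0305). GADD45B, a stress response gene, fell by 0.40 with curcumin (limma adjusted p = 0.0458) and had a difference of -0.34 with both agents (limma adjusted p = 0.0792). With both agents 2 of the 15 fell and 0 rose, where 0.900% of all genes were called lower and 0.543% higher. The median was -0.28, against -0.03 for all genes.

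Of 8 more targets, EDN1, the endothelin 1 gene, was the 1 that fell with curcumin, by 0.79 (limma adjusted p = 0.0267), from 11.0 ± 1.61 to 5.91 ± 0.635 TPM (SD, n = 3). Of all genes, 1.21% were called lower with curcumin. With both agents EDN1 had 7.24 ± 0.751 TPM and a difference of -0.53 (limma adjusted p = 0.103), and limma called 0 of the 8, 4 of which had an unadjusted p under 0.05, as did 13.5% of all genes. All 8 estimates were below 0 in both comparisons, where 53.5% and 56.1% of all genes were. The medians were -0.41 and -0.29, against -0.02 and -0.03 for all genes. DKK1, a secreted inhibitor of Wnt signalling, had a difference of -0.66 with curcumin (limma adjusted p = 0.198), with 1 palmitic acid library at 31.3 TPM and the other 2 at 19.2 and 17.6 TPM.

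The Hippo kinases and their adaptors gave no call. Of 20 genes 19 passed the filter, AMOT being at 0 in every library, and limma called 0 of 19 in either comparison with palmitic acid alone, with medians of -0.17 and -0.12. An unadjusted p under 0.05 was found for 3 of the 19 in each, near the 14.0% and 13.5% of all genes. Estimates were below 0 for 16 of the 19 with curcumin and for 17 with both agents, against 53.5% and 56.1% of all genes. NF2, the upstream tumour suppressor merlin, had 24.3, 19.7 and 20.2 TPM on average and differences of -0.29 and -0.25. LATS1, the relative of LATS2, stood at 3.74, 3.51 and 3.35 TPM. Of the other TEAD genes and the VGLL cofactors that compete for TEAD, 5 of 7 passed the filter and limma called 0, with an unadjusted p under 0.05 for 2 with curcumin and 1 with both agents, where 14.0% and 13.5% of all genes had one. TEAD4 was the most abundant TEAD gene, at 55.2 ± 1.36, 48.0 ± 0.987 and 51.5 ± 1.81 TPM (SD, n = 3), with a difference of -0.20 with curcumin (limma adjusted p = 0.184), above TEAD1 in every library. VGLL3 had the largest estimates of that list, -0.65 and -0.70 (limma adjusted p = 0.212 and 0.189). All 5 estimates of the list were below 0 in both comparisons, where 53.5% and 56.1% of all genes were.

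Relatives of the targets were measured beside them. Of 10 relatives in the CCN, TAM receptor and muscle ankyrin repeat families, 6 passed the filter, 3 fell and 0 rose in each comparison with palmitic acid alone. Of all genes, 1.21% were called lower with curcumin and 0.900% with both agents. Estimates were below 0 for 3 of the 6 in each, against 53.5% and 56.1% of all genes. CCN5, a secreted CCN protein that lacks the C-terminal domain of the others, stood at 226, 202 and 234 TPM under palmitic acid alone, 150, 134 and 145 TPM with curcumin and 138, 141 and 145 TPM with both agents. Palmitic acid replicate 3 was the highest of its group for CCN5, unlike the 10 genes above. CCN5 fell by 0.62 and by 0.63 (limma adjusted p = 0.00451 and 0.00527). CCN3, at 33.9, 19.2 and 19.0 TPM on average, fell by 0.78 and by 0.79 (limma adjusted p = 0.0342 and 0.0377). ANKRD2, a relative of ANKRD1, stood at 7.87, 4.49 and 4.29 TPM and fell by 0.69 and by 0.74 (limma adjusted p = 0.0321 and 0.0276). CCN2 was the measured CCN gene nearest to no difference among CCN1, CCN2, CCN3 and CCN5. TYRO3, the other TAM receptor above the filter, had a difference of 0.22 in both comparisons.

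Targets of serum response factor and its MRTF coactivators overlap with those of YAP and were listed for that reason. Of 12 genes 11 passed the filter (CNN1 did not). With curcumin 4 of the 11 fell and 0 rose, where 1.21% of all genes were called lower and 0.759% higher. For 11 of 11 the estimate was below 0, as for 53.5% of all genes, with a median of -0.29 against -0.02. TAGLN, an actin-binding protein gene, fell by 0.90 (limma adjusted p = 0.0265), from 13.3 ± 3.40 to 6.52 ± 0.0473 TPM (SD, n = 3). TPM1, tropomyosin 1, fell by 0.59 (limma adjusted p = 0.0246). FLNA, filamin A, fell by 0.27 (limma adjusted p = 0.0322). ACTB, beta-actin, whose reads may be shared with processed pseudogenes, fell by 0.30 (limma adjusted p = 0.0277). With both agents 1 of the 11, FLNA, fell, by 0.27 (limma adjusted p = 0.036), where 0.900% of all genes were called lower. The median was -0.26, against -0.03 for all genes.

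Among the genes named from these other lists, IGFBP3 and CCN5 passed with curcumin whichever single library was left out, and CCN5 lost its call in the fit of only the 2 groups (limma adjusted p = 0.0625, the highest of its 19 alternatives). Those of GADD45B, NUAK2, EDN1, CCN3, ANKRD2, TAGLN, TPM1, ACTB and FLNA were each lost when any 1 library other than palmitic acid replicate 3 was left out. These 9 were also lost with no filter and in the fit of only the 2 groups. Median-of-ratios scaling also cost the calls of GADD45B, ANKRD2, ACTB and FLNA, and leaving out the variance trend those of GADD45B, CCN3, TPM1, ACTB and FLNA. With both agents the call of IGFBP3 was lost in the fit of only the 2 groups, and without palmitic acid replicate 2 or any 1 of the 3 libraries with both agents, and those of NUAK2, CCN3 and FLNA without any 1 library other than palmitic acid replicate 3 and curcumin replicate 2. ANKRD2 lost its call with both agents without any 1 of 6 libraries, namely palmitic acid replicate 2, curcumin replicates 1 and 3 and the 3 with both agents. NUAK2, CCN3, ANKRD2 and FLNA were lost there too with no filter and in the fit of only the 2 groups. ANKRD2 and FLNA with both agents were also lost with median-of-ratios scaling, and CCN3 and FLNA with no variance trend. In bulk RNA, fewer cells of a type and less RNA per cell cannot be told apart, for these genes or for the 10.

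**Figure D4:**
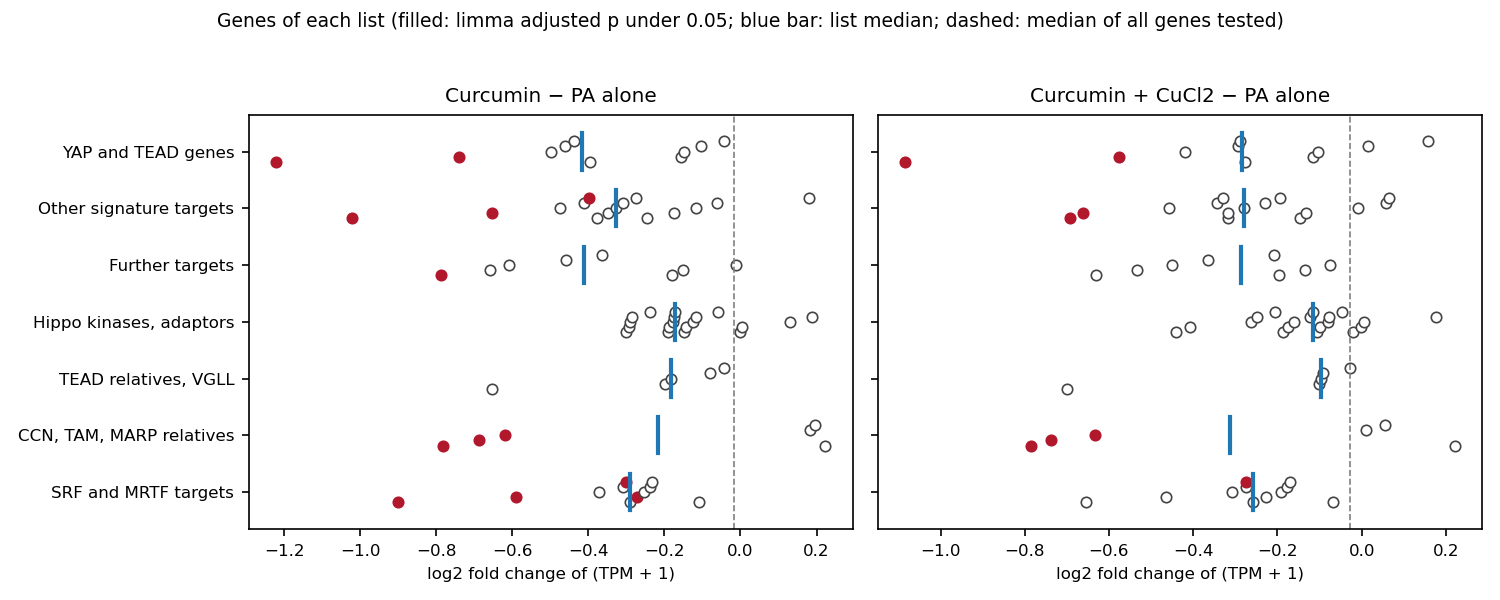
Log2 fold change of (TPM + 1) of the genes of each list that passed the filter, with curcumin (left) and with curcumin and CuCl2 (right) against palmitic acid alone, filled where the limma adjusted p is under 0.05, with a blue bar for the list's median and a dashed line for the median of all genes tested. With curcumin the medians run from -0.17 for the Hippo kinases to -0.42 for the 10 genes, and no filled point lies above 0.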

How the data were processed

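The authors deposited 1 table of TPM values with 2 decimals for 62703 genes in 9 polyadenylated RNA libraries, and its columns sum to between 999999 and 1000001. The tools RSEM 1.3.3 and HISAT2 2.1.0 and the build GRCh38.p13 stand in the submitters' processing notes. Their roles and the annotation release are not given in the sources used here. TPM keeps no depth, so no count model or counting interval was used. Columns were assigned by name, groups by the labels.

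The filter kept the 13443 genes that averaged 1 TPM or more, which hold 99.7% of the TPM, and values were taken as log2(TPM + 1), which understates changes of low genes. One model of all 9 libraries with a mean per group was fitted in limma 3.58.1 (R 4.3.3), with a variance trend. Tests were two-sided, with Benjamini-Hochberg adjustment over all genes kept, at 0.05. The procedure was run on simulated data in which genes varied independently, with no shift shared by the genes of a library. These libraries differ from that setting, so the simulation does not show how far the calls here can be trusted. The 10 genes, the other lists and the tests were chosen with earlier results of these data known. All 10 genes are named, from each other list those that passed and up to 4 with the largest estimates, of which a part is printed, and for ANKRD1, CCN1 and CCN2 the 3 nearest genes. LATS1, NF2, GAS6 and the ratios to CCN2 were singled out beside that rule, the ratios after their values were seen.

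Results were recomputed under 19 alternatives: another pseudocount (0.1, 5), another filter (none, or a mean of 5 TPM), median-of-ratios scaling, mitochondrial genes left out, their share as a covariate, no variance trend, a replicate block, a fit of only the 2 groups compared, and each of the 9 libraries left out. Sequences are from RefSeq on GRCh38.p14 and coordinates from GENCODE 29 on GRCh38. Python 3.11.15 with matplotlib 3.10.9 drew the figures.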

Additional observations from a re-analysis of the deposited data

How the results depend on the processing

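With curcumin, the number of the 10 genes called, 2, became 4 with median-of-ratios scaling, 5 with the mitochondrial share as a covariate, 0 with only the 2 groups compared, and 2 to 5 with 1 library left out (5 without palmitic acid replicate 3). With both agents, 2 became 3 with the mitochondrial covariate, 1 with no filter, 1 with only the 2 groups compared and 0 to 3 with 1 library left out (0 without any 1 of the 3 with both agents, 1 without palmitic acid replicate 2, 3 without palmitic acid replicate 3). Between both agents and curcumin it was 0 in all 19. Of all genes, the 264 called with curcumin became 104 with no filter, 35 with only the 2 groups compared, 130 with no variance trend, 1505 with the mitochondrial covariate (42.7% of them lower, against 61.4%), and 54 to 619 with 1 library left out. The 194 with both agents became 114, 65, 133 and 1436 (47.0% lower, against 62.4%) in the same settings, and 46 to 527. Median-of-ratios scaling called 312 of all genes with curcumin and 254 with both agents. The 0 between both agents and curcumin became 1 with a pseudocount of 5, 3 with no filter, 3 with only the 2 groups compared and 0 to 4 with 1 library left out. Some of these settings hold fewer samples or more genes. The cause of the changes was not tested.

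The labels give the groups the same replicate numbers, but same-numbered libraries did not deviate together throughout (correlations -0.27 to 0.25 over 13443 genes), so the numbers are not taken as pairs. With the replicate block 2 of the 10 genes were called in each comparison with palmitic acid alone, and 177 and 147 of all genes. GADD45B, NUAK2, CCN3, ANKRD2 and FLNA with curcumin, and NUAK2, CCN3 and FLNA with both agents, did not pass under the block.

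With the mitochondrial covariate, estimates with curcumin became 0.045 for CCN2, 0.086 for YAP1 and 0.052 for TEAD1, and with both agents 0.057 for YAP1 and 0.062 for TEAD1. The estimate of YAP1 between both agents and curcumin, -0.0004, became 0.0096 with median-of-ratios scaling and 0.0011 without mitochondrial genes. With 1 library left out, estimates with curcumin ran from -0.19 to 0.045 for CCN2, -0.38 to 0.067 for YAP1, -0.46 to 0.026 for TEAD1 and -0.10 to 0.020 for TEAD2. With both agents they ran from -0.38 to 0.067 for YAP1, -0.41 to 0.067 for TEAD1 and -0.10 to 0.14 for WWTR1. Between both agents and curcumin they ran from -0.12 to 0.19 for YAP1, -0.088 to 0.27 for TEAD1 and -0.039 to 0.089 for AXL. Scaling moved the median of all genes by at most 0.03.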
